A study of Rattus norvegicus with 241 samples.

Results

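The cells described are 3481 of the 103524 cells in 9 single-cell tables of whole rat mammary gland, 3.36% of all cells, gated as candidate dendritic cells. Members were chosen by the measured UMIs of 10 genes. A cell was a member when it held at least 2 UMIs (unique molecular identifiers, each counting 1 captured transcript) summed over FLT3, XCR1, CLEC9A and CCR7, and no UMI of CD3E, CD3D, CD79B, MS4A1, C1QA or KRT14. Members fell into 3 groups. The XCR1/CLEC9A group held the 182 members with a UMI of either of these genes, the CCR7 group held 3181 members that had neither but at least 2 UMIs of CCR7, and the FLT3 group held the remaining 118. Because the 4 genes chose the cells, their own levels are given as a description with no test.

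The glands came from virgin female Sprague Dawley (SD) rats, an outbred strain, dosed from about 24 days of age by oral gavage 2 times daily for 10 days with vehicle (3 rats) or with 75 mg/kg of the TGFβ receptor 1 kinase inhibitor LY2157299 (TGFBRi, 6 rats), and taken at day 0 after the final dose. Each table held 1 rat. Glands were digested with collagenase and the cells were not sorted, so immune, stromal and epithelial cells shared each library. A separate set of 8 SD rats of the same age and regimen, 4 per arm, gave bulk RNA-seq of sorted CD45+ leukocytes.

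Dendritic cells take up antigen, carry it to lymph nodes and present it to T cells. Type 1 conventional dendritic cells, which bear XCR1 and CLEC9A and depend on the transcription factors BATF3 and IRF8, present antigen from dead cells on MHC class I. Conventional dendritic cells that mature switch on CCR7, the receptor that guides them to lymphatic vessels, together with FSCN1, which bundles actin, and the T cell attracting chemokines CCL17 and CCL22. CCR7 is also carried by naive T cells and B cells. TGFβ is a regulator of dendritic cell maturation and of their residence in epithelia.

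CCR7 dominated the gate. It gave 25449 of the 26644 rule UMIs held by members (95.5%), against 693 of FLT3, 415 of CLEC9A and 87 of XCR1, and 3095 members (88.9%) qualified on CCR7 alone. Just outside the threshold, 1825 cells held 1 rule UMI, and just inside it 900 held 2. A further 18090 cells had 2 or more rule UMIs but were left out for a UMI of an excluded gene, of which 9167 held CD79B and 7967 held CD3D. Many cells of these glands with UMIs of the rule genes therefore carried lymphocyte genes.

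Marker levels supported the dendritic cell label for the XCR1/CLEC9A group and for part of the CCR7 group. Levels here and throughout are CPM, UMIs per 1000000 UMIs of all cells of a group summed within a rat. A list of 13 type 1 dendritic cell genes that the rule did not use (among them CADM1, WDFY4, NAAA, ITGAE, BATF3 and IRF8) summed to 1116 to 2566 CPM in the XCR1/CLEC9A group over the 9 rats. The 11 macrophage genes in the tables, of 12 listed, summed to 235 to 511 CPM there, with ADGRE1, CD163, FOLR2, F13A1 and TREM2 at 0, against 8726 to 15054 CPM in macrophages gated on at least 2 UMIs of the C1Q genes. The list holds C1QB and C1QC, which helped to choose those macrophages, so the gate fixed part of that contrast. B cell genes summed to 47 to 141 CPM and T cell genes to 53 to 241 CPM.

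The data went against the label for most of the CCR7 group. Split by FSCN1, a choice made after the values were seen, 841 of its cells held a FSCN1 UMI and 2340 did not. In the cells with FSCN1, the list of mature dendritic cell genes, with FSCN1 left out of the sum, reached 7244 to 13119 CPM, and B cell genes to 149 to 266 CPM. In the cells without FSCN1, the same genes summed to 2961 to 4535 CPM, against 2061 to 2797 CPM in gated B cells, and the B cell genes reached 638 to 1023 CPM against 940 to 1781 CPM in gated B cells. Gated B cells (5333) and T cells (2624) held at least 2 UMIs of their own gate genes and none of the other rule genes, CCR7 included. Here and below they are therefore only the B and T cells without a CCR7 UMI. The macrophage gate left out cells with a UMI of the other rule genes too. CACNB3, a calcium channel subunit gene of mature dendritic cells, averaged 592 CPM with FSCN1, 10.5 CPM without it and 3.12 CPM in gated B cells. The cells without FSCN1 are therefore called CCR7+ cells below and not dendritic cells, and results are given for the XCR1/CLEC9A group and for the FSCN1+ CCR7 cells. The split also follows depth, with medians per rat of 1881 to 2796 UMIs without FSCN1 and 4462 to 7024 UMIs with it. A UMI of the T cell list was held by 14.6% to 39.7% of the cells with FSCN1 and by 10.9% to 24.4% of those without. For the B cell list these were 22.4% to 40.3% and 31.2% to 60.6%. The source of the lymphocyte UMIs in the cells with FSCN1 was not tested. How many cells without a FSCN1 UMI are mature dendritic cells was not tested.

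**Figure D1:**
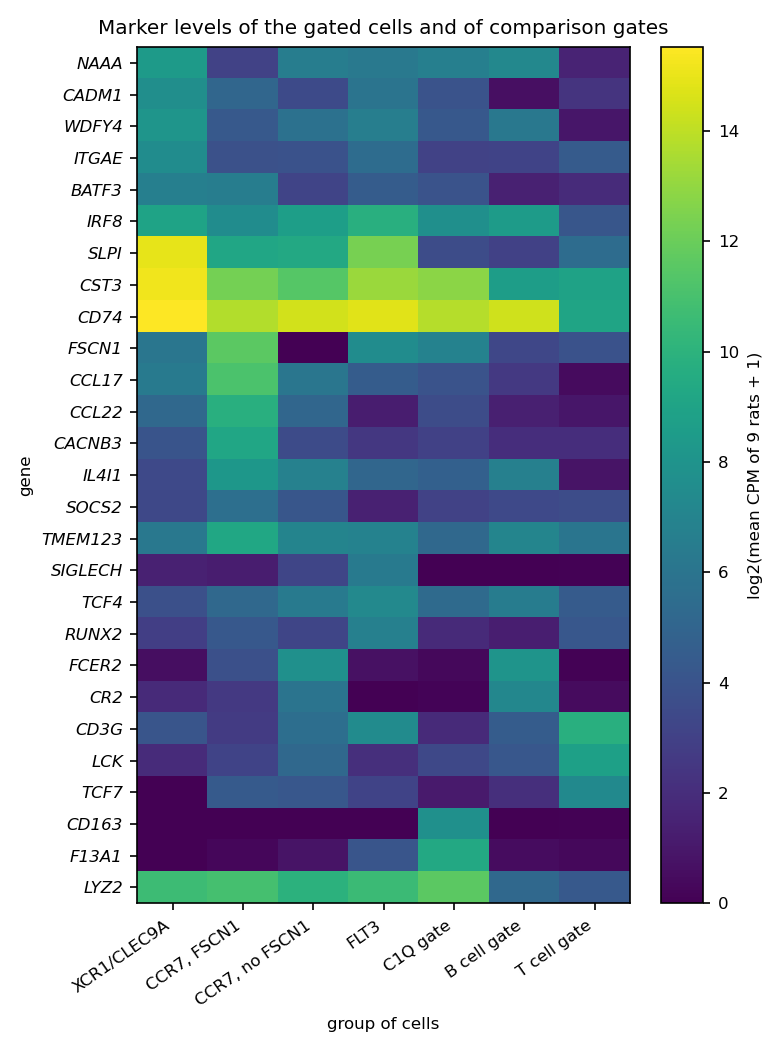
Heat map of marker genes (vertical axis) in the groups of gated cells and in gated macrophages (C1Q gate), B cells and T cells (horizontal axis); colour gives log2(mean CPM of 9 rats + 1). Type 1 dendritic cell genes stand high in the XCR1/CLEC9A column, CCL17, CCL22 and CACNB3 in the column of CCR7 cells with FSCN1, and FCER2 and CR2 in the CCR7 cells without FSCN1 and the B cell gate.

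The 118 cells of the FLT3 group showed another pattern. SIGLECH, a receptor of plasmacytoid dendritic cells, averaged 82.6 CPM there with a range of 0 to 164 CPM, and TCF4, the master transcription factor of that lineage, averaged 156 CPM. The list of 9 plasmacytoid genes summed to 38.0 to 1116 CPM over the rats. Lymphocyte genes stood there too: CD3G, a T cell receptor chain gene outside the rule, had a UMI in a median of 35% of these cells (0% to 81.8% over the rats) against 80.3% to 90.8% in gated T cells, and T cell genes summed to 198 to 552 CPM and B cell genes to 38.0 to 597 CPM. The group therefore keeps the name of its rule gene. It held 4 to 24 cells per rat, and its gene levels were not tested on their own.

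Tables held 7900 to 16424 cells, and 4 of the 3477 distinct member barcodes occurred in more than 1 table (6127 of 97157 over all cells). The median depth of members was 2065 to 2203 UMIs in vehicle and 3080 to 3741 UMIs in TGFBRi-treated rats, and did not overlap between the arms. Shares of cells are therefore also given at equal depth, with every cell of the tables thinned to 2820 UMIs and shallower cells left out (2852 to 7155 per rat), or, within the gate, with members thinned to 2065 UMIs. The rule was applied again to the thinned counts. When all cells were thinned, some of the 18090 cells left out for an excluded gene could therefore enter, if its UMIs were not drawn. How many entered was not counted. The XCR1/CLEC9A group was deeper, with medians of 6817 to 11593 UMIs in vehicle and 9411 to 12062 UMIs in TGFBRi-treated rats. No doublet caller was run. Leaving out cells above the 95th percentile of UMI totals of their library kept 3430 members.

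The share of the gland taken by the XCR1/CLEC9A group did not differ between the arms beyond the spread between rats. It made up 0.186% ± 0.0400 (SD, n = 3) of all cells in vehicle and 0.170% ± 0.0558 (SD, n = 6) in TGFBRi-treated rats, a difference of -0.0156 percentage points (exact permutation test, two-sided, p = 0.714, where the smallest p that 84 arrangements allow is 0.0119). FSCN1+ CCR7 cells made up 0.630% ± 0.246 and 0.909% ± 0.177 (exact permutation p = 0.0952), and the ranges overlapped. CCR7+ cells without FSCN1 were at 3.27% and 1.56% of all cells (exact permutation p = 0.0119), with no overlap. At equal depth the XCR1/CLEC9A group was at 0.136% and 0.125% (exact permutation p = 0.810). FSCN1+ CCR7 cells were then at 0.897% and 1.24% (exact permutation p = 0.119), and CCR7+ cells without FSCN1 at 1.5004% and 1.23% (exact permutation p = 0.393). Equal depth also left out cells below 2820 UMIs. The median depth of CCR7+ cells without FSCN1 was 1881 to 1981.5 UMIs in vehicle and 2241 to 2796 UMIs in TGFBRi-treated rats. Most of these cells were therefore left out in every rat, so the thinned shares cannot tell an effect of depth from the loss of shallow cells or the entry of excluded ones.

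**Figure D2:**
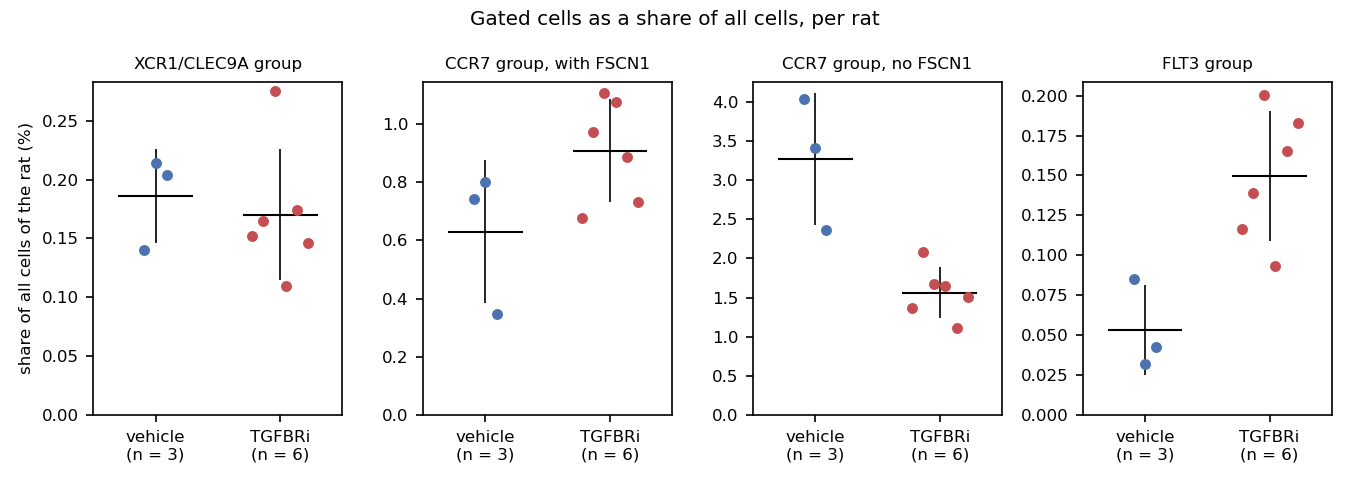
Share of all cells of each rat (vertical axes, percent, each from 0) taken by the 4 groups of gated cells in vehicle (3 rats, blue) and TGFBRi-treated rats (6 rats, red); points are rats, lines are means and bars are 1 SD. The arms overlap for the XCR1/CLEC9A group and the FSCN1+ CCR7 cells, and lie apart for CCR7 cells without FSCN1 and for the FLT3 group, where the TGFBRi points are higher. Depth is not matched in this plot.

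Taken whole, the gate fell from 4.14% ± 1.06 (SD, n = 3) to 2.79% ± 0.455 (SD, n = 6) of all cells (exact permutation p = 0.0357), but at equal depth the values were 2.61% and 2.71% (exact permutation p = 0.869). By their median depths, most members of each vehicle rat were too shallow to be kept there, and most members of each TGFBRi-treated rat were kept. The equal-depth values of the gate therefore cannot tell an effect of depth from this unequal loss or from the entry of excluded cells. Without matching depth, the fall showed no overlap as a share of cells with a PTPRC (CD45) UMI (9.15% to 4.92%) and for members without a lymphocyte-list UMI (0.838% to 0.450% of all cells), both with exact permutation p = 0.0119. The first of these moved with its denominator: cells with a PTPRC UMI rose from 23.3% to 40.04% of all cells (exact permutation p = 0.0119), while members with a PTPRC UMI were at 2.11% and 1.96% of all cells (exact permutation p = 0.631). In the members without a lymphocyte-list UMI the fibroblast list summed to 2258 to 13540 CPM in vehicle and 87.3 to 413 CPM in TGFBRi-treated rats, all 5 fibroblast genes tested fell, against 517 of 8396 genes (6.16%), and their part in the share was not tested. Without any 1 of vehicle rats 1 and 2 and TGFBRi rats 1, 6, 11 and 14 the p rose to between 0.0536 and 0.143. Over the same tables the share of gated B cells, which by their gate hold no CCR7 UMI, rose from 2.74% to 6.57% (exact permutation p = 0.0119). The FLT3 group rose from 0.0531% to 0.150% (exact permutation p = 0.0238) on 4 to 24 cells per rat, and at equal depth was at 0.0742% and 0.114% (exact permutation p = 0.0595).

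Among CCR7 cells the part with FSCN1 was larger after TGFBRi. The 3 vehicle rats had 12.8%, 15.6% and 19.02%, and the 6 TGFBRi-treated rats ranged from 31.95% to 44.3% with a median of 36.4%. Every TGFBRi-treated rat lay above every vehicle rat, with a mean difference of 21.1 percentage points (exact permutation p = 0.0119, the smallest possible), and leaving out any 1 rat left it between 19.6 and 22.7 points. With members thinned to 2065 UMIs, which kept the 175 to 456 vehicle and 153 to 290 TGFBRi members per rat of that depth or more, the shares were 24.6% ± 6.25 (SD, n = 3) and 50.2% ± 7.41 (SD, n = 6; exact permutation p = 0.0119), and without members that held any lymphocyte-list UMI, where the fibroblast sums moved as given above, they were 16.5% and 51.9%. In gated B cells, which should lack the gene, 1.29% and 1.46% of cells held a FSCN1 UMI, and in gated T cells 1.47% and 1.88%, while gated macrophages had 24.9% and 28.0% (exact permutation p = 0.393) and the XCR1/CLEC9A group 5.31% and 13.3% (exact permutation p = 0.0476). At 2820 UMIs these were 5.10% and 1.78% in B cells, where vehicle rat 4 kept 8 cells, 1.83% and 1.23% in T cells, 17.9% and 20.6% in macrophages (exact permutation p = 0.417) and 3.12% and 5.21% in the XCR1/CLEC9A group (exact permutation p = 0.488). The share combines the numbers of both kinds of CCR7 cell. Equal depth left out most CCR7+ cells without FSCN1 and could let in excluded cells. There, neither kind on its own differed as a share of all cells beyond the spread between rats.

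The XCR1/CLEC9A group was then set against the CCR7 group of the same rats, with the rat as a block (edgeR's quasi-likelihood test, adjusted p of 0.1 or less). The test called 4506 of 12404 genes (36.3%), 1132 higher (9.13%) and 3374 lower (27.2%), and against FSCN1+ CCR7 cells alone 3373 of 10919 (30.9%), 1141 higher (10.4%) and 2232 lower (20.4%). All fold changes that follow are log2, against FSCN1+ CCR7 cells, and each named gene that passed differed the same way in 9 of 9 rats. SLPI, which encodes a secreted inhibitor of leukocyte proteases, averaged 32015 CPM ± 9016 (SD, n = 9) against 579 CPM (7.77 ± 0.61 SE, adjusted p = 9.53e-12). NAAA, which encodes a lysosomal amidase, was higher by 5.56 ± 0.25, ITGAE, the αE integrin CD103, by 3.78 ± 0.21, WDFY4, needed for cross-presentation, by 3.72 ± 0.24, and CADM1, an adhesion molecule, by 2.64 ± 0.17. Of the type 1 dendritic cell list, 9 of 12 genes tested were higher and 2 lower. BATF3 did not pass in this comparison (0.11 ± 0.20, adjusted p = 0.762).

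TLR12, TLR11 and most MHC class II pathway genes also stood higher in the XCR1/CLEC9A group. TLR12 averaged 48.8 CPM against 0.577 CPM (5.79 ± 0.51, adjusted p = 1.09e-10) and TLR11 averaged 19.2 CPM against 1.48 CPM (3.73 ± 0.61, adjusted p = 1.45e-05), both encoding receptors for parasite profilin. Of 14 MHC class II pathway genes 12 were higher and 1 lower, led in level by CD74, the invariant chain, with 47186 CPM against 13938 CPM (1.83 ± 0.12). CST3, the cathepsin inhibitor cystatin C, averaged 37361 CPM ± 10805 (SD, n = 9) and alone made up most of the conventional dendritic cell list sum of 25190 to 60430 CPM.

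Genes of the maturation program were lower in the XCR1/CLEC9A group. Of 23 mature dendritic cell genes tested, 19 were lower and none higher. The FSCN1+ CCR7 cells were chosen for 2 genes that dendritic cells switch on as they mature, so the choice fixed part of that contrast. Of 9 genes of a type 2 dendritic cell list, 5 were lower and 2 higher, the higher ones being CLEC10A, a lectin of type 2 cells (4.67 ± 0.29, adjusted p = 7.08e-14), and CD1D1, which presents lipids (1.83 ± 0.37, adjusted p = 0.000296). SIRPA, the CD47 receptor that marks type 2 dendritic cells and macrophages, had 0 UMIs in this group in all 9 rats, which allows up to 1.52 CPM over the 9 rats together, and averaged 56.8 CPM ± 25.7 (SD, n = 9) in FSCN1+ CCR7 cells. LILRB4, an inhibitory receptor, was likewise at 0 in all 9 rats and averaged 191 CPM ± 151 (SD, n = 9) in the FSCN1+ cells. For TGFβ genes, TGFB1 was higher in the XCR1/CLEC9A group (626 CPM against 263 CPM, 1.29 ± 0.13, adjusted p = 3.92e-09), and SMAD7, the inhibitory SMAD, was lower (11.5 CPM against 198 CPM, -3.97 ± 0.32, adjusted p = 2.56e-11).

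Against gated macrophages of the same rats, the XCR1/CLEC9A group was higher at 1538 of 12402 genes (12.4%) and lower at 3916 (31.6%), and the FSCN1+ CCR7 cells differed at 6516 of 12842 (50.7%), 2764 higher (21.5%) and 3752 lower (29.2%). All 9 macrophage genes tested were lower in the XCR1/CLEC9A group. F13A1, the coagulation factor XIII A chain, averaged 653 CPM ± 345 (SD, n = 9) in macrophages and FOLR2, a folate receptor, 507 CPM ± 171, and both had 0 UMIs in the XCR1/CLEC9A group. Higher than in macrophages were SLPI (11.45 ± 0.27), SLAMF7, an immune cell adhesion receptor (6.52 ± 0.23), CADM1 (3.92 ± 0.22) and WDFY4 (3.71 ± 0.23). In FSCN1+ CCR7 cells, 20 of 23 mature dendritic cell genes were higher than in macrophages and 1 was lower. The choice of these cells by CCR7 and FSCN1 fixed part of that contrast too. CCL17 averaged 2194 CPM ± 739 in those cells against 14.9 CPM ± 24.96 in macrophages, and CCL22 averaged 893 CPM ± 385 against 11.3 CPM ± 22.4 (SD, n = 9).

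The effect of TGFBRi was tested on sums per rat, 3 vehicle against 6 TGFBRi-treated. Over all members together 1755 of 12555 genes passed (14.0%), 871 higher (6.94%) and 884 lower (7.04%). These sums mix the groups, whose proportions shifted. NUDT17, a nudix hydrolase gene, rose from 3.40 CPM ± 2.93 to 29.2 CPM ± 8.61 (2.81 ± 0.39, adjusted p = 0.00201), and IL22, a cytokine of T cells and innate lymphoid cells, rose from 22.98 CPM ± 0.883 to 142 CPM ± 76.9 (2.57 ± 0.46, adjusted p = 0.0058), and did not pass in FSCN1+ CCR7 cells (1.11, adjusted p = 0.693). PTX3, a secreted pattern recognition protein, fell from 25.2 CPM ± 7.31 to 1.17 CPM ± 1.57 (-4.28 ± 0.57, adjusted p = 0.00181). Of 10 epithelial genes tested, 5 fell and none rose. Without vehicle rat 1 the test called 1055 genes.

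In the XCR1/CLEC9A group, 277 of 7831 genes passed (3.54%), 64 higher (0.817%) and 213 lower (2.72%). Genes that define the type 1 dendritic cell state were among those that rose. WDFY4 was at 71.2, 146 and 63.6 CPM in the vehicle rats and ranged from 229 to 442 CPM with a median of 389 CPM in the TGFBRi-treated rats (1.74 ± 0.31, adjusted p = 0.00465). RAB7B, a small GTPase of endosomal traffic, was at 79.1, 129 and 111 CPM and then ranged from 269 to 503 CPM with a median of 315 CPM (1.48 ± 0.27, adjusted p = 0.00623). IRF8 was at 396, 262 and 169.7 CPM and then ranged from 452 to 821 CPM with a median of 610.1 CPM (0.96 ± 0.25, adjusted p = 0.045). All 6 TGFBRi-treated rats lay above all 3 vehicle rats for each of these genes.

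Of the type 1 dendritic cell list these were the 3 of 11 genes tested that rose, and none fell; the median log2 change of the list was 0.84 against 0.02 over all genes tested. BATF3 (1.16 ± 0.37, adjusted p = 0.125) and CADM1 (0.78 ± 0.25, adjusted p = 0.129) did not pass, although their rats did not overlap between the arms. NAAA and ITGAE did not pass either. The IRF8 call was lost without vehicle rat 2 (adjusted p = 0.153), vehicle rat 4 (0.149) or TGFBRi rat 4 (0.106). TLR12 rose from 15.8, 12.9 and 21.2 CPM to a range of 41.1 to 105.5 CPM (1.79 ± 0.45, adjusted p = 0.0417), and that call was lost without vehicle rat 1 (0.152), vehicle rat 2 (0.158) or TGFBRi rat 4 (0.105). The TLR12 vehicle levels lie near the 11.9 to 15.9 CPM that a count of 0 allows in those rats. In gated macrophages, T cells and B cells RAB7B passed in none of the 3, and WDFY4 rose in B cells (0.80, adjusted p = 0.0135). IRF8 changed there by 0.78, 1.07 and 0.61, near its 0.96 in the XCR1/CLEC9A group, and did not pass (adjusted p 0.202 to 0.244). In macrophages TLR12 changed by 1.80 (adjusted p = 0.336), CADM1 by 1.22 (adjusted p = 0.261) and BATF3 by 0.83 (adjusted p = 0.194), and BATF3 fell in B cells (-2.33, adjusted p = 0.0874).

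TNFSF9, the ligand of the T cell co-stimulator 4-1BB, rose from 3.96, 0 and 5.30 CPM to a range of 8.25 to 108.3 CPM (3.54 ± 0.87, adjusted p = 0.0355), a call lost without vehicle rat 1 (0.128) or 2 (0.152). All its vehicle levels lie below the 11.9 to 15.9 CPM that a count of 0 allows in those rats, so the size of the rise is not exact. CYB561A3, a lysosomal ferric reductase gene, rose from 23.7, 21.5 and 10.6 CPM to a range of 38.7 to 210 CPM (2.56 ± 0.46, adjusted p = 0.0048), and also rose in gated B cells (0.51, adjusted p = 0.0726). Its level in vehicle rat 4 is also below what a count of 0 allows there. CST3 fell from 39399, 59889 and 46992 CPM to a range of 24620.4 to 38652 CPM (-0.84 ± 0.16, adjusted p = 0.00623), and also fell in gated T cells (-1.16, adjusted p = 0.0666). CLEC10A fell from 225, 524 and 154 CPM to a range of 70.1 to 147 CPM (-1.73 ± 0.31, adjusted p = 0.00512). None of the 14 MHC class II genes or the 10 class I and cross-presentation genes passed in either direction, CD74 included (-0.31 ± 0.13, adjusted p = 0.274).

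**Figure D3:**
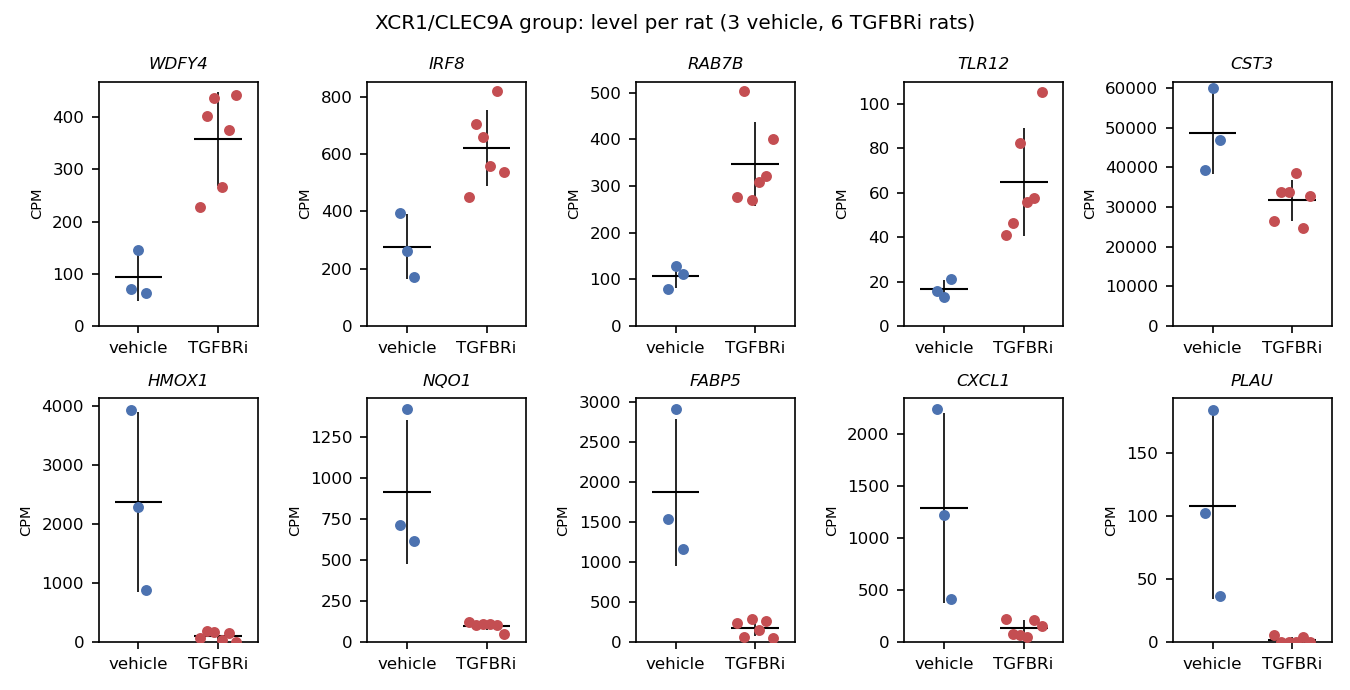
Level per rat in the XCR1/CLEC9A group (CPM, vertical axes from 0) for 10 genes in 3 vehicle (blue) and 6 TGFBRi-treated rats (red); points are rats, lines are means and bars are 1 SD. The arms lie apart in every panel: WDFY4, IRF8, RAB7B and TLR12 were higher after TGFBRi and the other 6 lower.

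The 11 genes with the lowest adjusted p in the XCR1/CLEC9A group fell, among them NQO1, HMOX1 and TXNRD1, which act against oxidative stress, and both ferritin chains. Of 12 genes tested of an immediate early and stress list, which holds none of those 5, 2 rose (FOSB and JUND) and 2 fell (IER3 and ATF3). NQO1, a quinone reductase, was at 716, 1418 and 615 CPM in vehicle and ranged from 50.2 to 123 CPM with a median of 109.9 CPM after TGFBRi (-3.37 ± 0.26, adjusted p = 7.29e-07). HMOX1, which breaks down heme, was at 3944, 2303 and 891 CPM and then ranged from 0 to 201 CPM with a median of 116 CPM (-4.60 ± 0.50, adjusted p = 4.91e-05). TXNRD1, thioredoxin reductase, was at 597, 399.5 and 201 CPM and then ranged from 55.2 to 111 CPM (-2.50 ± 0.29, adjusted p = 6.61e-05). Every vehicle rat lay above every TGFBRi-treated rat for all 3 genes, and each passed without any 1 rat.

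Other genes that fell follow. FTL1 changed by -1.58 ± 0.19 (adjusted p = 0.000116), FTH1 by -1.08 ± 0.13 (adjusted p = 8.69e-05), SQSTM1, the autophagy adaptor, by -1.59 ± 0.22 (adjusted p = 0.000377) and GSR, glutathione reductase, by -2.31 ± 0.40 (adjusted p = 0.00416). FABP5, a fatty acid binding protein, was at 1543, 2909 and 1166 CPM and then ranged from 60.3 to 286 CPM (-3.51 ± 0.36, adjusted p = 3.54e-05). HSPB1, a small heat shock protein, changed by -4.78 ± 0.63 (adjusted p = 0.000212), CXCL1, a neutrophil chemokine, by -3.44 ± 0.40 (adjusted p = 6.77e-05) and PLAU, the urokinase protease, by -5.86 ± 0.64 (adjusted p = 4.91e-05). EDNRB, an endothelin receptor, was at 111, 12.9 and 15.9 CPM in vehicle and at 0 in all 6 TGFBRi-treated rats (adjusted p = 0.00816; without vehicle rat 1 too few counts remained to test it), and also fell in gated macrophages (-1.39, adjusted p = 0.0817) and T cells (-2.40, adjusted p = 0.0352). TIMP3, a metalloproteinase inhibitor of matrix, was at 90.98, 21.5 and 26.5 CPM and then ranged from 0 to 16.5 CPM (-3.62, adjusted p = 0.0164), a call lost without vehicle rat 1 (0.216). Both are also genes of stromal or vascular cells. In this group the fibroblast list summed to 11.9 to 578 CPM in vehicle and 30.1 to 449.7 CPM after TGFBRi, with none of 4 genes tested called, and the epithelial list to 84.8 to 971 CPM and 23.5 to 371 CPM, and their part in these changes was not tested. The stress and iron genes were gathered after their values were seen, apart from those that the naming rule returned.

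Several of these genes also fell in other cells of the glands, and whether the fall in the XCR1/CLEC9A group has the same source was not tested. In gated macrophages, T cells and B cells, HMOX1 changed by -2.14, -3.90 and -3.41 and NQO1 by -2.33, -3.69 and -2.84, all past the threshold. FTH1, FTL1, TXNRD1, SQSTM1, HSPB1 and CXCL1 also fell in all 3 gates, with 421 of 12128 (3.47%), 379 of 11576 (3.27%) and 649 of 12199 (5.32%) genes called there. GSR passed in none of the 3 (-0.99, adjusted p = 0.207 in macrophages, 0.026 in T cells and -0.0084 in B cells), PLAU passed in T and B cells and not in macrophages (-0.79, adjusted p = 0.188), and FABP5 passed in macrophages and T cells and not in B cells (-0.61, adjusted p = 0.260). The fall was larger in the XCR1/CLEC9A group than in macrophages for HMOX1 (difference of log2 changes -2.61, adjusted p = 8.27e-08), PLAU (-5.26, adjusted p = 4.70e-08), CXCL1 (-2.26, adjusted p = 5.18e-08) and FABP5 (-2.01, adjusted p = 8.22e-06), by edgeR's test of the difference, which called 97 of 12402 genes (0.782%), 19 higher (0.153%) and 78 lower (0.629%). No other tool was run on this difference. Against the whole CCR7 group, the differences for HMOX1, PLAU and CXCL1 passed with edgeR and no longer passed with DESeq2.

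The promoter of TXNRD1 is shown because it was the 1 of 15 searched promoters that held the antioxidant response element, searched on both strands, which 3.00% of 33469 RefSeq promoters of 300 bases hold. The 15 belong to genes picked for the search, oxidative stress and heat shock genes among them, so such counts are a description. The window (RefSeq, build GRCr8, which is not the build of the tables, minus strand, chr7:22755855-22756154, 250 bases before to 50 after 1 of 2 listed starts) has the match in capitals, read on the opposite strand, 79 bases before the start.
TXNRD1 promoter: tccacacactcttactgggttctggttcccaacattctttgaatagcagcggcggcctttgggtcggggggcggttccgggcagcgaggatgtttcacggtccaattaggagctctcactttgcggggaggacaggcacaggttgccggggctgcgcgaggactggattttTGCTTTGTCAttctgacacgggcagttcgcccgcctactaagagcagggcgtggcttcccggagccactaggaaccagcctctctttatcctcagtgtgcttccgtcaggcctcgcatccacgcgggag

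CCL17 and CCL22, the ligands of CCR4 that draw T cells to dendritic cells, changed in opposite directions in the XCR1/CLEC9A group and in the FSCN1+ CCR7 cells. In the XCR1/CLEC9A group CCL17 was at 98.9, 137 and 419 CPM in vehicle and ranged from 4.13 to 50.2 CPM with a median of 11.1 CPM after TGFBRi (-3.79 ± 0.53, adjusted p = 0.000471). CCL22 was at 11.9, 116 and 159 CPM and then ranged from 0 to 40.2 CPM with a median of 2.06 CPM (-3.69 ± 0.80, adjusted p = 0.0197). The arms did not overlap for CCL17 and overlapped for CCL22, whose call was lost with DESeq2 (adjusted p = 0.358). EBI3, a subunit of the cytokines IL-27 and IL-35, fell as well (-1.70 ± 0.30, adjusted p = 0.00416), and these were the 3 of 21 mature dendritic cell genes that passed in this group, all lower. EBI3 also fell in gated macrophages (-1.74, adjusted p = 0.00339) and B cells (-1.02, adjusted p = 0.0375).

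In FSCN1+ CCR7 cells CCL17 was at 1274, 1468 and 1797 CPM in vehicle and ranged from 1543 to 3283 CPM with a median of 2654 CPM after TGFBRi (0.78 ± 0.21, adjusted p = 0.0625). CCL22 was at 258, 400 and 854 CPM and then ranged from 819 to 1439 CPM with a median of 1057 CPM (1.17 ± 0.31, adjusted p = 0.0601). Both arms overlapped for both genes, and the calls were lost without vehicle rat 1 (adjusted p = 0.235 for CCL17 and 0.215 for CCL22), vehicle rat 2 (0.230 and 0.257) or TGFBRi rat 4 (0.152 and 0.143). That of CCL17 was also lost without TGFBRi rat 11 (0.106) or 14 (0.119), and that of CCL22 without TGFBRi rat 2 (0.119).

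The difference between the 2 changes was tested itself. Within each rat, with 0.5 added to each CPM, the log2 ratio of CCL17 in the XCR1/CLEC9A group to that in FSCN1+ CCR7 cells averaged -3.06 ± 0.85 (SD, n = 3) in vehicle and -7.54 ± 1.42 (SD, n = 6) after TGFBRi, and that of CCL22 averaged -2.86 ± 1.36 and -8.85 ± 2.78. In the XCR1/CLEC9A group of TGFBRi-treated rats a count of 0 allows up to 7.28 to 23.2 CPM. The CCL22 median and the lowest CCL17 level there lie below this, so the sizes of the ratios after TGFBRi depend on the added 0.5 and are not exact. The arms did not overlap for either gene (edgeR difference of log2 changes -4.39 ± 0.38, adjusted p = 9.32e-14 for CCL17, and -4.82 ± 0.53, adjusted p = 1.35e-09 for CCL22), in a test that called 79 of 10919 genes (0.724%), 25 higher (0.229%) and 54 lower (0.495%). Against the whole CCR7 group, where 286 of 12404 genes passed (2.31%), 54 higher (0.435%) and 232 lower (1.87%), the differences were -5.11 ± 0.34 and -5.34 ± 0.46, and DESeq2 gave adjusted p of 3.38e-05 and 0.00788. For both genes the SE of the edgeR difference is below that of the change in the XCR1/CLEC9A group alone. The edgeR adjusted p of these differences therefore overstate the precision between rats. Neither gene passed in gated macrophages or B cells.

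**Figure D4:**
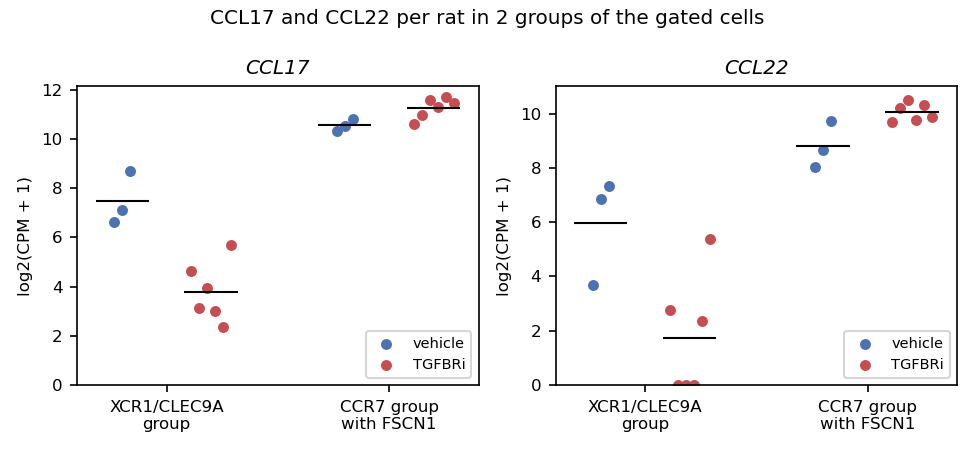
CCL17 (left) and CCL22 (right) per rat on a log2(CPM + 1) axis in the XCR1/CLEC9A group and in CCR7 cells with FSCN1, for 3 vehicle (blue) and 6 TGFBRi-treated rats (red); lines are means. The red points lie below the blue ones on the left of each panel, apart from TGFBRi rat 14 for CCL22, and mostly above them on the right.

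The promoter of CCL22 is printed for this pair because it holds a kappaB element, the site of NF-kappaB factors, as do 4.09% of all 33469 RefSeq promoters, and as does CXCL1 among the 15 searched. It lies in GRCr8 on the minus strand at chr19:10270310-10270609, with the match in capitals, read on the opposite strand, 142 bases before the start.
CCL22 promoter: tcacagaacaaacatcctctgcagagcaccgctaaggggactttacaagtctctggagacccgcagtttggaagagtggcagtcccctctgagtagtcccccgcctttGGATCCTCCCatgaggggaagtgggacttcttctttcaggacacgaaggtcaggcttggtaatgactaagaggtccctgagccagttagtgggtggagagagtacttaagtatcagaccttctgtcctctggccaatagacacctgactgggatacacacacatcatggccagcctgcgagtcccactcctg

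In FSCN1+ CCR7 cells, 491 of 10339 genes passed (4.75%), 226 higher (2.19%) and 265 lower (2.56%), and leaving out 1 rat gave 206 to 563. Of 23 mature dendritic cell genes tested 10 rose and none fell, with a median log2 change of 0.77 against 0.03 over all genes tested. CD83, a maturation marker that stabilises MHC class II at the surface, was at 306, 460.2 and 299 CPM and ranged from 570 to 914 CPM with a median of 770.0 CPM after TGFBRi (1.10 ± 0.18, adjusted p = 0.00732). TMEM123, a surface mucin, was at 335, 406 and 367 CPM and then ranged from 615 to 879 CPM (1.04 ± 0.15, adjusted p = 0.00515). IL4I1, a secreted amino acid oxidase, was at 198, 199 and 49.2 CPM and then ranged from 259 to 461 CPM (1.26 ± 0.30, adjusted p = 0.0361). The arms did not overlap for these 3 genes, and each passed without any 1 rat. CD83 also rose in gated B cells (0.52, adjusted p = 0.0572) and changed by 0.76 in macrophages (adjusted p = 0.170), and IL4I1 changed by 0.96 in both (adjusted p = 0.212 and 0.327).

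CACNB3 (0.95 ± 0.19, adjusted p = 0.0194) and CD40, the receptor through which T cells license dendritic cells (0.77 ± 0.19, adjusted p = 0.049), also rose with no overlap. The CACNB3 call was lost without vehicle rat 1 (adjusted p = 0.103). The CD40 call was lost without vehicle rat 1 (0.224), vehicle rat 2 (0.166), TGFBRi rat 1 (0.104) or TGFBRi rat 4 (0.114). FSCN1 chose these cells and was at 3311 CPM ± 707 and 3055 CPM ± 237 in the 2 arms, and MARCKSL1, another mature dendritic cell gene, did not pass (0.02 ± 0.12, adjusted p = 0.977). Of 11 class I and cross-presentation genes 3 rose, the immunoproteasome subunits PSMB9 and PSMB10 and the peptide editor TAPBPL, led by PSMB10 (0.80 ± 0.16, adjusted p = 0.0194). The PSMB9 call (0.58 ± 0.16, adjusted p = 0.0652) was lost without any 1 rat other than vehicle rat 4 and TGFBRi rat 6 (adjusted p 0.102 to 0.295), and PSMB9 also rose in gated T cells (0.51, adjusted p = 0.0698).

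Genes of other cells moved along with these values, and their part was not tested. The median depth of FSCN1+ CCR7 cells per rat was 4613 to 5690 UMIs in vehicle and 4462 to 7024 UMIs after TGFBRi, which overlapped. The fibroblast list summed to 2393 to 15050 CPM in the FSCN1+ CCR7 cells of vehicle rats and to 48.1 to 2894 CPM in those of TGFBRi-treated rats, and the epithelial list to 295 to 1598 CPM and 127 to 295 CPM. Against macrophages, the change with TGFBRi was higher in FSCN1+ CCR7 cells for 6 of 23 mature dendritic cell genes and lower for none, in a test that called 82 of 12842 genes (0.639%), 50 higher (0.389%) and 32 lower (0.249%). Of the 6, TMEM123, CD40 and SOCS2, a feedback inhibitor of cytokine signaling, rose in FSCN1+ cells, and EBI3, MARCKSL1 and NFKB2 did not pass there. CD40 differed by 1.39 (adjusted p = 0.0255), with a change of -0.58 in macrophages (adjusted p = 0.243), and SOCS2 by 2.01 (adjusted p = 0.0734), with -0.88 in macrophages (adjusted p = 0.328). For EBI3 and MARCKSL1 the macrophages fell (-1.74, adjusted p = 0.00339, and -1.17, adjusted p = 0.0501) while the FSCN1+ cells changed by -0.43 and 0.02.

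**Figure D5:**
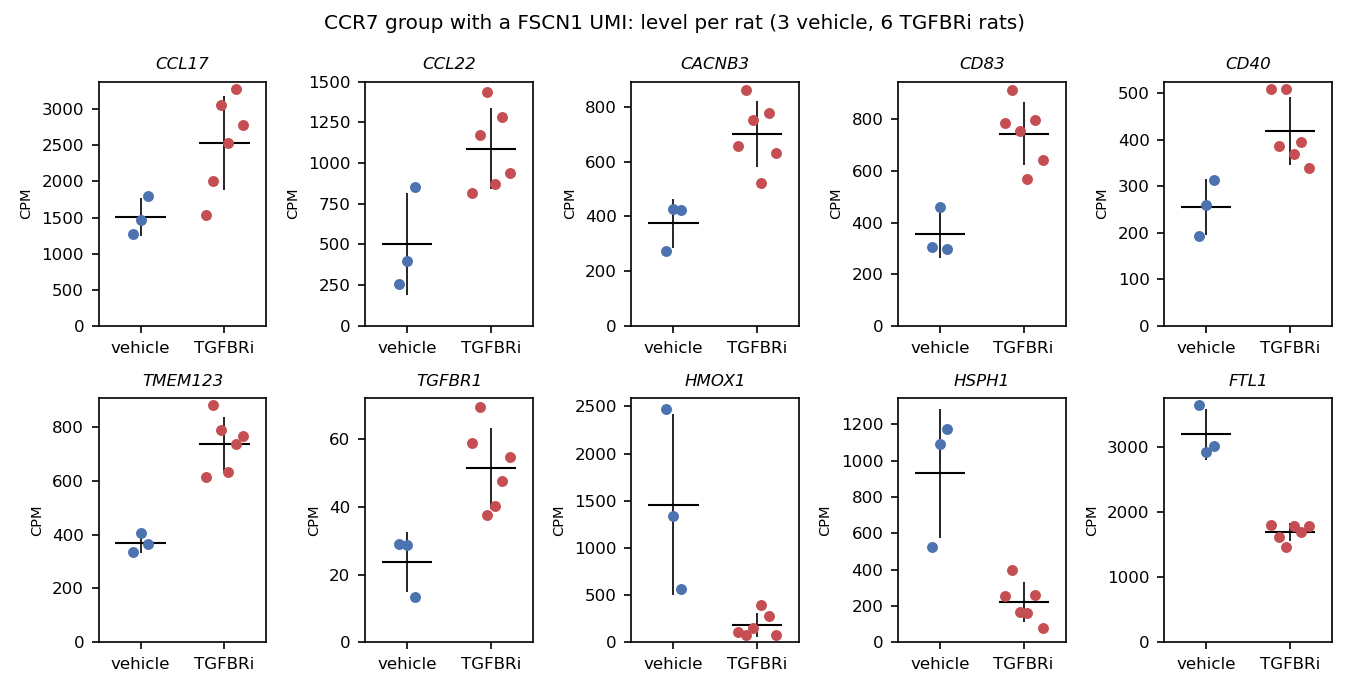
Level per rat in CCR7 cells with a FSCN1 UMI (CPM, vertical axes from 0) for 10 genes in 3 vehicle (blue) and 6 TGFBRi-treated rats (red); points are rats, lines are means and bars are 1 SD. CACNB3, CD83, CD40, TMEM123 and TGFBR1 were higher after TGFBRi with no overlap, CCL17 and CCL22 higher with overlap, and HMOX1, HSPH1 and FTL1 lower.

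Lower genes in FSCN1+ CCR7 cells included heat shock genes as well as HMOX1, which changed by -2.94 ± 0.46 (adjusted p = 0.00601). HSPH1, an HSP110 chaperone, was at 524, 1091 and 1176 CPM and ranged from 78.7 to 396 CPM with a median of 211 CPM after TGFBRi (-2.04 ± 0.35, adjusted p = 0.00902). The mitochondrial chaperonin genes HSPE1 (-1.58 ± 0.25, adjusted p = 0.00667) and HSPD1 (-1.75 ± 0.29, adjusted p = 0.00764) also fell. HSPD1 also fell in gated macrophages (-1.03, adjusted p = 0.0375). HSPH1 fell in gated macrophages (-1.79, adjusted p = 0.0286), and in gated T and B cells it changed by -0.19 (adjusted p = 0.915) and -1.10 (adjusted p = 0.240). MMP12, a macrophage elastase also made by dendritic cells, fell from 100, 47.2 and 49.2 CPM to a range of 0 to 13.1 CPM (-3.71 ± 0.48, adjusted p = 0.00282).

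The HSPH1 promoter is shown because it, with those of HSPE1 and HSPD1, was among 3 of 15 searched promoters that held the heat shock element, against 0.798% of all 33469. Heat shock genes were among those picked for the search, so the count does not test for an excess. It lies in GRCr8 on the plus strand at chr12:10427118-10427417, with the match in capitals, read on the opposite strand, 36 bases before the start.
HSPH1 promoter: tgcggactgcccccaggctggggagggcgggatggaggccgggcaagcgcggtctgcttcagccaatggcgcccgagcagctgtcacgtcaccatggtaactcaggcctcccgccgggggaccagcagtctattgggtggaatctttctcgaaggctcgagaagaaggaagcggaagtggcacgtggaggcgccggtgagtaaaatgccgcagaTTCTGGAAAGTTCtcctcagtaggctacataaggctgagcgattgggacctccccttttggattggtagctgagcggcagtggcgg

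Genes of the pathway that the inhibitor targets follow. Over all genes, 3.54% were called in the XCR1/CLEC9A group and 4.75% in FSCN1+ CCR7 cells, and these lists are too short to set against those shares. In the XCR1/CLEC9A group none of 6 TGFβ ligand and receptor genes, 4 latency and activation genes, 10 SMAD and feedback genes and 8 target genes passed. There TGFB1 was at 526.1, 524 and 589 CPM in vehicle and ranged from 552 to 778 CPM after TGFBRi (0.06 ± 0.19, adjusted p = 0.940), and TGFBR1, the kinase that LY2157299 inhibits, averaged 18.8 CPM and 19.3 CPM. In FSCN1+ CCR7 cells TGFBR1 was at 28.99, 28.7 and 13.4 CPM and ranged from 37.4 to 69.2 CPM with a median of 51.1 CPM after TGFBRi (1.01 ± 0.29, adjusted p = 0.0816), with no overlap. That call was lost with DESeq2 (adjusted p = 0.169) and without any 1 rat other than TGFBRi rats 4 and 6 (adjusted p 0.104 to 0.205). ENG, the endoglin co-receptor, fell (-1.30 ± 0.28, adjusted p = 0.0248), a call lost without vehicle rat 1 (0.111) or 2 (0.134), and also fell in gated T cells (-2.02, adjusted p = 0.0483).

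Of 9 latency and activation genes tested in FSCN1+ CCR7 cells, LTBP1, a latent TGFβ binding protein (-2.29 ± 0.65, adjusted p = 0.0807), and THBS1, thrombospondin 1 (-2.83 ± 0.78, adjusted p = 0.0710), fell, against 2.56% of all genes, both also matrix genes of fibroblasts, whose list summed to less in most of those rats. THBS1 also fell in gated macrophages (-1.87, adjusted p = 0.0667), T cells (-1.43, adjusted p = 0.0167) and B cells (-2.03, adjusted p = 0.0846). The LTBP1 call was lost without any 1 rat other than TGFBRi rats 6 and 11 (adjusted p 0.111 to 0.211). The THBS1 call was lost with DESeq2 (adjusted p = 0.449) and without vehicle rat 2 (0.579) or TGFBRi rat 1 (0.116), 2 (0.125), 4 (0.144) or 11 (0.114). None of 12 SMAD and feedback genes, SMAD7 included (0.49 ± 0.23, adjusted p = 0.310), and none of 11 target genes passed.

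Over all members together ID2, a TGFβ target that dendritic and innate lymphoid cells need, rose from 246 CPM ± 32.4 (SD, n = 3) to 433 CPM ± 22.4 (SD, n = 6; 0.76 ± 0.12, adjusted p = 0.00278). ID2 did not pass in the XCR1/CLEC9A group (adjusted p = 0.501) or in the FSCN1+ CCR7 cells (adjusted p = 0.270).

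In bulk CD45+ leukocytes of the other 8 SD rats, no dendritic cell gene passed, and there fewer cells of a type and less RNA per cell cannot be told apart. Values are read counts divided by a size factor. Limma on log2(value + 1) called 0 of 13779 genes (0.00%) at an adjusted p of 0.05, with 501 (3.64%) at an unadjusted p under 0.05. On the recovered reads, which leave out vehicle rat 1, edgeR called 0 and DESeq2 called 1. CCL17 was at 2613, 2635, 2482 and 2849 in vehicle and at 1630, 1435, 1337 and 3139 after TGFBRi (-0.58 ± 0.33, limma adjusted p = 0.870). The first 3 TGFBRi-treated rats lay below all vehicle rats and the fourth above them.

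HMOX1 averaged 7695 ± 6057 and 7995 ± 1829 (SD, n = 4 each) and NQO1 1261 ± 1398 and 1237 ± 694 in those leukocytes, and neither passed (limma log2 change 0.48 ± 0.59, adjusted p = 0.882, and 0.40 ± 0.67, adjusted p = 0.901). The rule genes were all present. CCR7 averaged 26186 ± 12474 and 28292 ± 17867, FLT3 383 ± 357 and 574 ± 449, CLEC9A 88.8 ± 146 and 118 ± 124, and XCR1 72.9 ± 58.1 and 28.4 ± 28.4, and for each the arms overlapped.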

How the data were processed

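Whole-gland single-cell libraries (droplet 5′ capture) of 9 SD rats and bulk CD45+ libraries of 8 SD rats were used, with groups taken from the labels. Per the labels and methods, the authors aligned whole-gland reads to rn6 with Cell Ranger 7.0.0 without intronic reads and filtered in Seurat 4.1.1 (genes in at least 10 cells, cells with at least 100 genes and at most 15% mitochondrial reads), and the deposited values are raw UMI counts over 18237 genes. For bulk, the submitters' processing notes name STAR 2.5.1b, HTSeq and DESeq2 1.30.1, and the deposited signal is read counts divided by size factors. All bulk values came out as whole multiples of 1 step per library (tolerance 0.001), giving 7006141 to 19830659 reads. No count was claimed for vehicle rat 1, whose step was near 1. Vehicle rat 1 was therefore left out of the bulk edgeR and DESeq2 runs, which used the recovered reads of the other rats.

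Member counts were summed per rat, never tested per cell, and sums of at least 10 cells entered edgeR 4.0.16 (TMM, quasi-likelihood, at least 10 counts, Benjamini-Hochberg adjusted p of 0.1 or less) in R 4.3.3. Comparisons of groups within rats had the rat as a block. Bulk values were tested with limma 3.58.1 on log2(value + 1), shares with an exact permutation test, two-sided, over all arrangements of the rats in Python 3.11.15 with numpy 2.4.6. DESeq2 1.42.0, other filters, thresholds and member definitions, depth thinning and leaving out each rat were alternatives. Scripts were tested on simulated data. Members and gene lists were chosen with earlier results of these data known. The split by Fscn1, members without lymphocyte-list UMIs, the thinned shares of single groups, the shares of cells with a PTPRC UMI, the tests of the XCR1/CLEC9A and FSCN1+ groups on their own and the difference of their changes were added after seeing the data. Named genes were up to 10 per direction with the largest change among those past the threshold, with at least 20 counts and no overlap, plus genes of the lists and of the rule. Exceptions are named in the text as chosen after their values were seen. Nothing in the labels says that rats of an arm differ in litter, so p-values measure at most the spread between these rats. The p-values of edgeR's differences of changes can understate that spread. Intervals and floors cover counting error only. Symbols were matched ignoring case and are in capitals in the figures.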

Additional observations from a re-analysis of the deposited data

Results flagged for a closer look

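A single rat stood apart from the others of its arm by Dixon's criterion in 7 of 83 groups of values tested, where chance gives about 1 in 20. After TGFBRi, rat 14 had the lowest NQO1 level in the XCR1/CLEC9A group (50.2 CPM), the highest CCL22 level there (40.2 CPM) and the highest THBS1 level in FSCN1+ CCR7 cells (24.0 CPM). In the same FSCN1+ cells, TGFBRi rat 6 stood apart for PLAU (57.3 CPM) and TGFBRi rat 4 for PSMB10 (337 CPM). In bulk CD45+ leukocytes, vehicle rat 2 stood apart for CLEC9A (307) and TGFBRi rat 4 for CCL17 (3139, in reads per size factor).

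The change with TGFBRi differed between the XCR1/CLEC9A group and the whole CCR7 group by edgeR's test of the difference of log2 changes, for CCL17 (-5.11), CCL22 (-5.34), PLAU (-4.14), FABP5 (-2.88), HMOX1 (-1.99), NQO1 (-1.96), TXNRD1 (-1.64), CXCL1 (-1.40) and CYB561A3 (2.60). With DESeq2 the difference no longer passed for HMOX1 (adjusted p = 0.819), PLAU (0.644) and CXCL1. Against FSCN1+ CCR7 cells alone it did not pass for PLAU (-2.32, adjusted p = 0.420) or CYB561A3 (1.55, adjusted p = 0.477).

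Against macrophages, the change in the XCR1/CLEC9A group differed for PLAU (-5.26), CCL22 (-5.04), CCL17 (-3.14), HMOX1 (-2.61), CXCL1 (-2.26), FABP5 (-2.01), TXNRD1 (-1.19) and NQO1 (-1.02). The change in FSCN1+ CCR7 cells was higher than in macrophages for SOCS2 (2.01), CD40 (1.39), EBI3 (1.28), TMEM123 (1.24), MARCKSL1 (1.02) and NFKB2 (0.87). Both sets of differences from macrophages were run with edgeR only.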

How the results depend on the processing

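Limits lie in the few XCR1/CLEC9A cells (13 to 33 per rat), in 3 vehicle rats, and in a depth per cell that differed between the arms. The cause of a change under an alternative was not tested. The fall of the gate as a share of cells (-1.35 percentage points) turned to a rise when cells were thinned (0.103), when CCR7 was left out of the rule (0.116), for FSCN1+ CCR7 cells (0.279, thinned 0.346) and for the FLT3 group (0.0965, thinned 0.0401). It no longer passed with at least 3 rule UMIs (-0.909), strict exclusion of other cell types (-0.366) the XCR1/CLEC9A group alone (-0.0156, thinned -0.0106) or thinned CCR7+ cells without FSCN1 (-0.272), passed among cells with a PTPRC UMI (-4.24, as these cells rose), without lymphocyte-list UMIs (-0.388), without top UMI totals (-1.36) and in unthinned CCR7+ cells without FSCN1 (-1.70), and leaving out 1 rat gave -1.93 to -0.915. The XCR1/CLEC9A share of members (+1.31, not past the threshold) was -0.339 when thinned and 0.294 to 2.33 with 1 rat left out. The CCR7 share of members (-5.48, exact permutation p = 0.0476) no longer passed with at least 3 UMIs (-3.26), strict exclusion (-4.77), no lymphocyte UMI (-4.27) or thinning (-1.77), and was -6.57 to -4.67 with 1 rat left out, passing only without vehicle rat 4 or TGFBRi rat 6 (exact permutation p otherwise 0.0536 to 0.107). The FSCN1 share of CCR7 cells passed in every alternative run.

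Genes called with TGFBRi over all members (1755) numbered 1074 at an adjusted p of 0.05, 217 without CCR7, 861 with strict exclusion, 277 in the XCR1/CLEC9A group, 491 in FSCN1+ cells, 840 without lymphocyte UMIs and 1055 to 1840 with 1 rat left out. The XCR1/CLEC9A group alone gave 524 with no filter, 183 at an adjusted p of 0.05, 187 with DESeq2 and 169 (without TGFBRi rat 4) to 325. FSCN1+ cells gave 255 at an adjusted p of 0.05, 341 with DESeq2 and 206 (without vehicle rat 2) to 563, with 224 without vehicle rat 1, 301 without TGFBRi rat 2 and 318 without TGFBRi rat 4. The XCR1/CLEC9A against CCR7 comparison gave 2980 with DESeq2 and 3762 to 4285 with 1 rat left out, and its difference of changes (286) gave 64 with DESeq2, 79 against FSCN1+ cells and 170 to 307. All members against macrophages gave 7414 to 7619 with 1 rat left out, and the difference of changes there (174) gave 494 with no filter, 96 at an adjusted p of 0.05, 24 without CCR7, 325 with strict exclusion, 284 without top UMI totals, 97 in the XCR1/CLEC9A group, 82 in FSCN1+ cells and 56 (without vehicle rat 2) to 200. Bulk gave 1 gene with DESeq2, run without vehicle rat 1, and 0 to 0 with 1 rat left out of the limma test. The XCR1/CLEC9A against CCR7 comparison with strict exclusion was not run, since too few rats kept 10 cells.

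Rats numbered 1, 2 and 4 in both arms did not deviate together (correlations -0.064, 0.0738 and -0.0552 over 8041 genes). So few values cannot decide whether the numbers pair the rats. With the number as a replicate block 381 genes passed against 484 for the same rats without it. Directions over all members turned for CCL17 (-3.85 without CCR7, -3.79 in the XCR1/CLEC9A group), CCL22 (-2.44 and -3.69), TGFBR1 (-0.20 and -0.15), ACVRL1 (-0.041 without CCR7), LTBP1 (1.02) and FURIN (1.15) with strict exclusion, and SMAD7 (-0.74) and RUNX3 (-0.016) in the XCR1/CLEC9A group. Without CCR7, CACNB3 turned against macrophages (-0.26) and MARCKSL1 in the difference of changes (-0.0700). Of 386 gene values of the XCR1/CLEC9A group under alternatives 365 kept direction and side of the threshold, and of 364 in FSCN1+ cells 298 did.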
